A study of Mus musculus with 4 samples.

Results

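The genes described here encode the secreted Wnt ligands, the Frizzled receptors and Lrp5 and Lrp6 co-receptors that bind them, the secreted antagonists that block them (the Sfrp, Frzb, Dkk and Wif1 proteins), and Axin2, Lef1 and Tcf7, which act in or report the nuclear response. They were measured in mouse embryonic fibroblasts (MEFs), cells grown from mid-gestation embryos of C57BL/6J mice (1 label field of the G2KO arrays reads C57BL/7J). Members were taken by gene name from the array annotation, with the brightest probe standing for each gene. The names took 59 probes of 44 genes, and 28 of these genes were detected in both comparisons, out of 15731 detected gene names and 27744 gene names on the array. Of the other 16 genes, 5 were detected in 1 comparison and 11 in neither.

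Wnt proteins bind a Frizzled receptor together with Lrp5 or Lrp6. In the canonical branch this protects beta-catenin from degradation, and beta-catenin then acts with Lef1 or Tcf7 on target genes such as Axin2; in the other branches Frizzled signals to the cytoskeleton and to cell polarity. Sfrp proteins and Frzb bind Wnt ligands outside the cell, whereas Dkk proteins such as Dkk2 bind the Lrp co-receptors. Embryonic mesenchyme both makes and receives these signals.

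The study compared MEFs lacking cyclin G1 (G1KO, CycG1-/-) or cyclin G2 (G2KO, CycG2-/-) each with a wild-type culture (WT, CycG1+/+ or CycG2+/+), all in logarithmic growth and untreated. In the G1KO allele, per the methods, the coding exons of Ccng1 were replaced by a neomycin-resistance cassette. Each comparison had 2 arrays of 2 colours carrying the same pair of RNAs with the dyes exchanged, so there was 1 RNA per genotype and comparison and no test between genotypes was possible. Values are log2 ratios of knockout over WT as mean ± SD of the 2 arrays, an SD that holds technical error only. A gene was called higher or lower where both arrays of a pair passed 2-fold in the same direction.

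The targeted genes were examined first. The 2 Ccng1 probes were 31.2-fold and 102-fold lower in G1KO than in its WT. The single Ccng2 probe was not lower in the RNA labelled G2KO, with a log2 ratio of 0.09 ± 0.27, and whether this probe lies in the deleted part is not given in the sources used here. Every direction given below for G2KO therefore rests on the label, and the RNA is called the RNA labelled G2KO. In that RNA both Ccng1 probes were higher than in its WT, by 5.62-fold and 6.35-fold. Their log2 levels were 13.20 and 13.79 in that RNA and 10.71 and 11.12 in its WT. The WT of the G1KO pair had 12.98 and 13.69, so the 2 WT RNAs differed at these probes too.

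The RNAs of a pair also differed in other ways. Xist, expressed from the inactive X chromosome, had levels of 14.02 and 13.74 in the knockout RNAs against 6.49 and 6.50 in the WT RNAs at its brightest probe, so the sex of the embryos and the genotype cannot be told apart. Per the study's supplementary text, the MEFs of both knockouts were of female origin and were genotyped by RT-PCR. All 11 fibroblast markers were above background in the 4 RNAs. In G1KO 3 of them were higher (Col5a1, Lum and Pdgfrb) and Dcn was 16.6-fold lower. The germ cell marker Ddx4 was 61.0-fold lower there, the epithelial Krt8 and Krt14 were lower, and Cnn1, Myh11 and Sox9 were higher. In the RNA labelled G2KO the cartilage markers Sox9 and Col2a1 and the mesothelial Krt19 were lower, and Msln was higher. In G1KO 5 of 6 mesothelial markers were lower (Msln, Upk3b, Upk1b, Wt1 and Lrrn4) and Krt19 was higher. In the RNA labelled G2KO 6 of 11 fibroblast markers were lower, and Sox2, Foxa2, En2 and Nes, 4 of 8 tested neural progenitor, floor plate and glia markers, were higher. In G1KO 2 markers of that list were higher as well, Nes by 5.07-fold and S100b by 6.07-fold. Foxa2 had a level of 13.08 in the RNA labelled G2KO, and of 12.57 and 13.73 in G1KO and its WT. The part of these differences in the results below was not tested.

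The summed level of the mesothelial list was 14.78 in G1KO and 17.75 in its WT, against 11.94 and 10.74 in the other pair, on the log2 scale. The neural list had summed levels of 13.29 and 13.85 in G1KO and its WT, most of it from Foxa2, with Sox2 not above background in either. In the RNA labelled G2KO and its WT the sums were 15.62 and 11.35. Shh, Gfap and Pax6 of that list were detected in neither comparison. The fibroblast list had summed levels of 18.46 and 18.80 in the G1KO pair and of 17.86 and 19.23 in the other. Pecam1 and Cdh5 of endothelium and Ptprc of blood cells were detected in neither comparison. Fewer cells of a type and less RNA per cell cannot be told apart in such bulk RNA.

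Among the 28 genes, 9 were called in G1KO, 5 higher and 4 lower, or 32.1% against 6.41% of the 15731 genes tested. Called in the RNA labelled G2KO were 11 genes, 4 higher and 7 lower, or 39.3% against 7.47%. Over all genes tested, 2.4% were higher and 4.0% lower in G1KO, and 2.55% higher and 4.92% lower in the RNA labelled G2KO. The members had a median log2 ratio of 0.11 for G1KO and of -0.32 for the other comparison, beside 0.00 and -0.01 for all genes tested. The median size of the ratio was 0.56 and 0.57, against 0.22 and 0.25 for all genes. With the scanner software's own ratio the split in G1KO was 8 higher and 4 lower, a setting for which no share over all genes is given. The calls took in 4 of 6 secreted antagonists and 1 of 10 Frizzled receptors in G1KO, and 3 and 4 in the second comparison, as the plot of ratios by array shows.

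**Figure D1:**
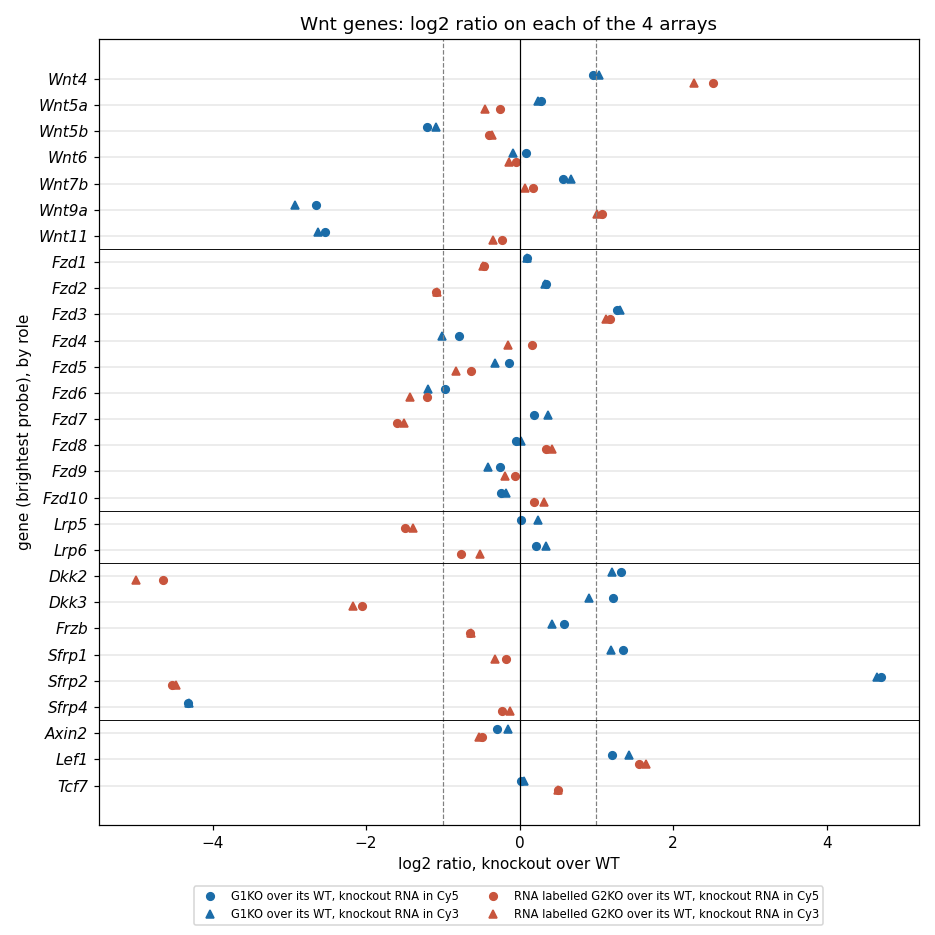
Log2 ratio of knockout over WT on each of the 4 arrays (x axis) for the 28 Wnt genes (y axis, grouped by role), with circles for knockout RNA in Cy5 and triangles for knockout RNA in Cy3, and dashed lines at 2-fold. The 2 arrays of a pair lie close together for nearly every gene, and Sfrp2, Dkk2 and Sfrp4 stand farthest from 0.

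Sequences are shown for Sfrp2, which differed most in opposite directions, and for Wnt11 and Wnt5b, whose promoters hold the letters CTTTGAT, or ATCAAAG on the other strand, read by Lef1 and Tcf7 proteins. The windows run over 300 bases around the start of the gene, from RefSeq on GRCm38.p6, and the letters stand in capitals. For 17 of the 28 members 24 windows were found, and 2 of them held the letters; over all 32851 windows the share was 3.73%. A match is a description of the letters only.
Sfrp2: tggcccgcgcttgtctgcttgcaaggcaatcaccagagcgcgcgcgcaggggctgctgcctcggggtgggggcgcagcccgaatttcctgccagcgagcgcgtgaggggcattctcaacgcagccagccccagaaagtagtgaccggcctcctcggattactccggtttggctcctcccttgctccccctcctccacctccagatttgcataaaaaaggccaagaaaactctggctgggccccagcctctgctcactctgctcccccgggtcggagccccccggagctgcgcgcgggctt
Wnt11: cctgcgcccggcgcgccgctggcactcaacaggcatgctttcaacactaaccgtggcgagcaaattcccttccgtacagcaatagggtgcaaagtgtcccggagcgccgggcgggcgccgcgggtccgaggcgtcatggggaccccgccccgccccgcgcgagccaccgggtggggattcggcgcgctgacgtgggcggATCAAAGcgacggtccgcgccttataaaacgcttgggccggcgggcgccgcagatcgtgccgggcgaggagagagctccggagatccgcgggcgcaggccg
Wnt5b: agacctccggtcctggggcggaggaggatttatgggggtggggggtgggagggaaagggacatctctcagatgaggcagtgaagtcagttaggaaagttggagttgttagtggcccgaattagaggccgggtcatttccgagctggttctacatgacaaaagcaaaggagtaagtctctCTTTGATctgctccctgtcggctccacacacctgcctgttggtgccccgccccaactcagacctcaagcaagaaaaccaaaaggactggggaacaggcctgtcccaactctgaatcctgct
The Sfrp2 window is chr3:83766071-83766370 on the plus strand, with no match. That of Wnt11 is chr7:98834862-98835161 on the plus strand and that of Wnt5b chr6:119449337-119449636 on the minus strand, with 1 match each. Wnt11 was lower in G1KO and not called in the RNA labelled G2KO, and Wnt5b likewise.

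Secreted antagonists held the largest differences. Of 6 detected, 3 were higher and 1 lower in G1KO, whereas 3 were lower and none higher in the RNA labelled G2KO. Dkk3 is counted here by its family name. Sfrp2, a Wnt-binding protein of mesenchyme, read at chr3:83859869-83859928 (mm8, plus strand), had levels of 12.49 and 12.43 on the 2 arrays of G1KO and 7.78 and 7.77 in its WT. In the other pair the levels were 7.65 and 7.72 in the RNA labelled G2KO and 12.18 and 12.19 in its WT. Levels were thus high in G1KO and the G2KO-pair WT and low in the other 2 RNAs. These gave log2 ratios of 4.69 ± 0.04 for G1KO, 25.7-fold higher, and -4.50 ± 0.04 for the RNA labelled G2KO, 22.6-fold lower.

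Dkk2, which binds Lrp5 and Lrp6, was called in opposite directions too. Its probe, at chr3:132116699-132116758 (mm8, plus strand), gave levels of 10.55 and 10.60 in G1KO and 9.23 and 9.39 in its WT. The RNA labelled G2KO had levels of 9.71 and 9.31, and its WT 14.36 and 14.30, the highest of the 4 RNAs by far. Its log2 ratios were 1.26 ± 0.08 for G1KO and -4.82 ± 0.24 for the second comparison, 28.3-fold lower.

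Dkk3, a divergent relative of Dkk2, was 4.33-fold lower in the RNA labelled G2KO, with levels of 9.92 and 9.88 against 11.97 and 12.05 in its WT. In G1KO its log2 ratios were 1.22 and 0.90, so it was not called there, though the scanner software's own ratio called it higher at 1.54. Its level was lowest in the G1KO-pair WT, at 7.28 and 7.35.

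Sfrp4, another Wnt-binding protein, was 19.9-fold lower in G1KO, with levels of 7.54 and 7.72 against 11.86 and 12.02 in its WT. In the other pair the levels were 6.26 and 6.39 against 6.49 and 6.52, a log2 ratio of -0.18 ± 0.07. The G1KO-pair WT was therefore the sole RNA with a high level. Sfrp1 was 2.40-fold higher in G1KO, with 10.09 and 9.99 against 8.74 and 8.80, and differed by -0.24 ± 0.10 on the log2 scale in the RNA labelled G2KO.

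Frzb was not called in G1KO (0.50 ± 0.12). On neither array was it well above background for the RNA labelled G2KO, which was lower than in its WT with a bound of 1.56-fold. Such bounds are averaged over the 2 arrays, and both dye orientations enter the mean equally. They set the brighter RNA against the dim probe or the lowest signal well above background in its channel, whichever is higher. For Frzb the dim probe was the higher, so the bound is the measured ratio and not a sure minimum. With the scanner software's own ratio Frzb had a log2 ratio of -2.47 there and was called lower. Dkk1, Dkk4, Sfrp5 and Wif1 were detected in neither comparison.

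**Figure D2:**
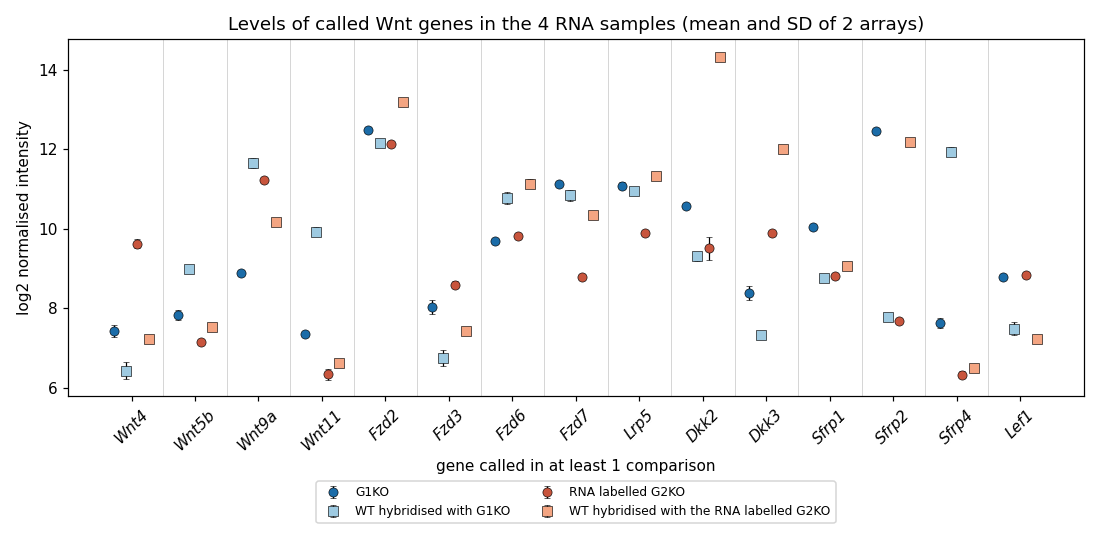
Log2 normalised intensity (y axis, mean and SD of 2 arrays) of the 15 genes called in at least 1 comparison, in the 4 RNAs: knockout as circles, WT as squares. Sfrp2, Dkk2, Dkk3 and Sfrp4 are high in 1 or 2 RNAs only, and the 2 WT RNAs lie apart for these 4 genes.

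Of 7 Wnt ligands detected in both comparisons, 3 were lower in G1KO and 2 were higher in the RNA labelled G2KO. Wnt9a, a ligand active in joint and skeletal tissue, had levels of 8.93 and 8.82 in G1KO against 11.58 and 11.75 in its WT, and 11.22 and 11.22 in the RNA labelled G2KO against 10.15 and 10.21. It was low in G1KO alone. The log2 ratio was -2.78 ± 0.19 in G1KO, 6.89-fold lower, and 1.04 ± 0.04 in the RNA labelled G2KO, just past 2-fold. Its probe lies at chr11:59149389-59149448 (mm8, plus strand).

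Wnt11, a ligand of the polarity branch, was 5.99-fold lower in G1KO, with levels of 7.30 and 7.38 against 9.84 and 10.00 in its WT. The RNA labelled G2KO, above background on 1 of 2 arrays, and its WT were both low, with levels of 6.43 and 6.23 and of 6.66 and 6.58. Wnt5b was lower in G1KO by 2.21-fold, with mean levels of 7.83 ± 0.12 against 8.98 ± 0.04. In the RNA labelled G2KO its log2 ratio was -0.38 ± 0.02.

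Wnt4, which acts in kidney and gonad development, was 5.26-fold higher in the RNA labelled G2KO, with levels of 9.71 and 9.54 against 7.19 and 7.27 in its WT. In G1KO the log2 ratios of 0.95 and 1.04 fell on both sides of 2-fold and Wnt4 was not called. It was called higher there with a normexp offset of 16, at 1.42, and with the scanner software's own ratio, at 2.34. The Wnt4 levels in the G1KO-pair WT were low, at 6.58 and 6.27. The remaining ligands Wnt5a, Wnt6 and Wnt7b were called in neither comparison, with log2 ratios between -0.36 and 0.62, though Wnt7b was called higher in G1KO with the scanner software's own ratio, at 1.23.

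Some ligands were measured in 1 pair only. Wnt2 was 2.49-fold lower in G1KO, with levels of 8.43 and 8.47 against 9.73 and 9.81, but went undetected in the other pair. Wnt10b was 2.46-fold lower in the RNA labelled G2KO, with levels of 8.43 and 8.32 against 9.68 and 9.66, but went undetected in the G1KO pair. Wnt16 was lower in the second pair with a bound of 1.60-fold, and Wnt2b was lower in G1KO with a bound of 1.24-fold. Wnt10a in the second knockout RNA exceeded its WT with a bound of 1.13-fold. These bounds are the measured ratios as well, and Wnt16, Wnt2b and Wnt10a were not called. The other 7 ligands were detected in neither comparison.

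All 10 Frizzled receptors were detected, and most were not called. Of the 10 receptors, 1 was higher and 9 were not called in G1KO. In the RNA labelled G2KO 1 was higher, 3 were lower and 6 were not called. Fzd3 was called higher in both comparisons, with levels of 8.15 and 7.91 against 6.88 and 6.60 in the G1KO pair and 8.65 and 8.52 against 7.47 and 7.40 in the other. The log2 ratios were 1.29 ± 0.03 and 1.15 ± 0.04. A second, dimmer Fzd3 probe had 0.54 ± 0.03 and 0.60 ± 0.16 and was called in neither comparison.

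Fzd7 had levels of 8.75 and 8.82 in the RNA labelled G2KO against 10.36 and 10.33, a 2.94-fold lower value. Fzd6 was 2.50-fold lower and Fzd2 2.11-fold lower there. In G1KO the log2 ratio of Fzd6 was -1.08 ± 0.15, with 1 of its 2 arrays at -0.97, just inside 2-fold, and those of Fzd2 and Fzd7 were 0.34 ± 0.02 and 0.28 ± 0.13.

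The co-receptor Lrp5 was 2.71-fold lower in the RNA labelled G2KO, with levels of 9.86 and 9.93 against 11.35 and 11.32, and was near its WT in G1KO at a log2 ratio of 0.13 ± 0.16. Lrp6 had log2 ratios of 0.27 ± 0.09 and -0.64 ± 0.18 and was called in neither comparison.

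Lef1, a transcription factor of the canonical branch, was higher in both comparisons. Its levels were 8.81 and 8.79 in G1KO against 7.61 and 7.37, and 8.83 and 8.82 in the RNA labelled G2KO against 7.28 and 7.18. Both knockout RNAs thus lay above both WT RNAs, by 2.48-fold and 3.02-fold within their pairs. Tcf7 had log2 ratios of 0.04 ± 0.02 and 0.50 ± 0.01. Axin2, a feedback inhibitor induced by beta-catenin, had -0.22 ± 0.10 and -0.51 ± 0.03, and neither was called. In the RNA labelled G2KO both passed 2-fold with the scanner software's own ratio, Axin2 lower at -1.42 and Tcf7 higher at 1.20.

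**Figure D3:**
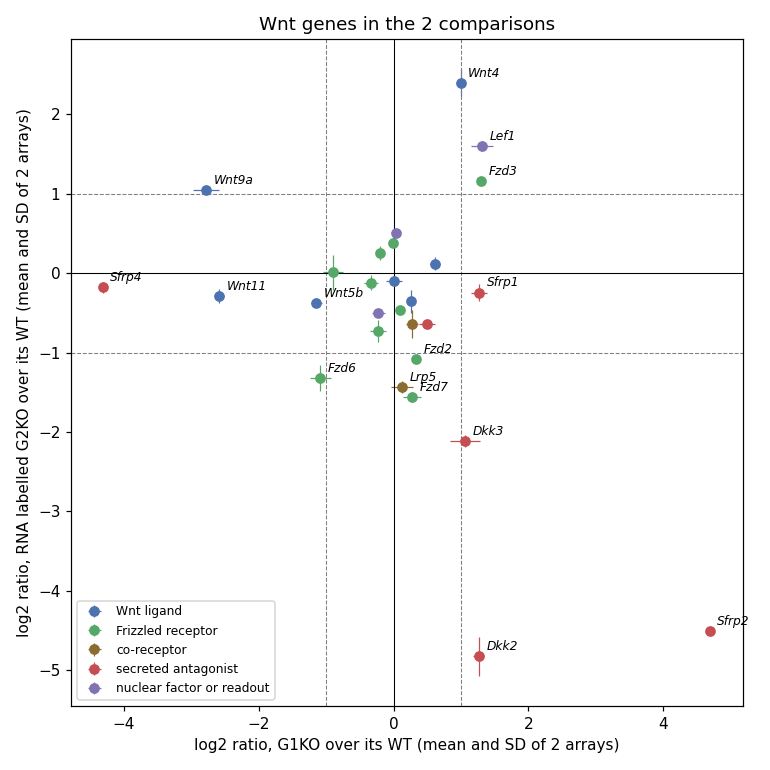
Log2 ratio of G1KO over its WT (x axis) against that of the RNA labelled G2KO over its WT (y axis) for the 28 genes, with the SD of 2 arrays as bars, colour for role, dashed lines at 2-fold and names for genes called at least once. Sfrp2 and Dkk2 lie at lower right, Wnt9a at upper left, and Lef1 and Fzd3 at upper right.

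Across the 28 genes, 5 were called in both comparisons. Fzd3 and Lef1 were called in the same direction, and Dkk2, Sfrp2 and Wnt9a in opposite ones; 13 genes were called in neither. With median centring Dkk2 lost its call in G1KO, and Wnt9a and Fzd3 lost theirs in the RNA labelled G2KO, which left Lef1 and Sfrp2. With no background subtraction Wnt9a and Fzd3 lost the latter call too. The signs did not change. Over all genes tested 0.979% were called in both in the same direction and 1.14% in opposite directions. The comparisons used different WT RNAs.

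The 2 WT RNAs were therefore set beside each other, dye by dye, after the channels were scaled together. Of the 28 genes 10 differed by over 2-fold in both dyes, 4 higher and 6 lower in the G2KO-pair WT, against 12.2% of all genes tested. The differences on the log2 scale were 5.02 ± 0.16 for Dkk2, 4.70 ± 0.01 for Dkk3 and 4.41 ± 0.01 for Sfrp2, and Fzd1 differed by 1.45 in Cy3 and 1.54 in Cy5. They were -5.44 ± 0.10 for Sfrp4, -3.30 ± 0.17 for Wnt11, -1.59 ± 0.04 for Fzd4, -1.48 ± 0.08 for Wnt9a, -1.45 ± 0.10 for Wnt5b and -1.19 ± 0.09 for Frzb. The difference between the WT RNAs was larger in size than the G1KO log2 ratio for 20 of the 28 genes, and larger than that of the RNA labelled G2KO for 14. WT differences of over 2-fold were also found among all genes tested, but at a lower share than among the members. Over all genes tested the median size of the WT difference was 0.32, above the 0.22 and 0.25 of the 2 knockout ratios. For the members it was 0.51, beside 0.56 and 0.57.

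In the 12 members with more than 1 probe, the other probes were dimmer by the choice of the brightest. Where the brightest probe was called, they showed smaller ratios. In G1KO the second Wnt5b probe had a log2 ratio of -0.39 ± 0.07 and that of Sfrp1 0.40 ± 0.06, and neither was called. The second Fzd3 probe was called in neither comparison. A second Lef1 probe had log2 ratios of 0.84 and 0.68 in G1KO and 1.08 and 0.94 in the RNA labelled G2KO. The second Fzd7 probe had -0.61 and -0.88 in the RNA labelled G2KO, and that of Fzd2 -0.83 and -0.77. The second Wnt9a probe was not detected.

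Of 54 other Wnt pathway genes detected in both comparisons, G1KO had 8 calls and the second comparison 9, that is 14.8% and 16.7%, against 6.41% and 7.47% of all genes tested. Their median log2 ratios were 0.14 and -0.04. R-spondins amplify Wnt signals through Lgr receptors. Rspo1 was 16.7-fold lower in G1KO, at levels of 8.43 against 12.49, and Rspo2 was 16.6-fold lower in the RNA labelled G2KO, at 6.58 against 10.63. The receptor Lgr4 was 5.94-fold lower there, and Lgr6 at least 2.64-fold higher. The 2 WT RNAs differed here too, by log2 differences of -5.12 ± 0.12 for Rspo1, 3.88 ± 0.28 for Rspo2 and 2.34 ± 0.06 for Lgr4 (G2KO-pair WT over G1KO-pair WT).

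Dact1, a Dishevelled-binding protein, was 3.83-fold higher in G1KO and 7.78-fold lower in the RNA labelled G2KO, and Prickle1, of the polarity branch, was 3.03-fold higher and 3.86-fold lower. Apcdd1, a membrane inhibitor, was higher in both, by 3.41-fold and 2.62-fold, and so was Ccnd1, which encodes cyclin D1, by 2.19-fold and 4.93-fold. In G1KO Vangl2 was 3.06-fold higher and Celsr1 and Daam1 were 2.46-fold and 2.27-fold lower. In the RNA labelled G2KO Nkd2 was 4.13-fold lower and Dact2 2.36-fold higher. Between the WT RNAs, the log2 differences were 3.81 ± 0.12 for Nkd2, 3.30 ± 0.30 for Dact1, 1.75 ± 0.05 for Dact2, 1.26 ± 0.11 for Prickle1 and -4.34 ± 0.19 for Celsr1, while Apcdd1, Ccnd1, Vangl2, Daam1 and Lgr6 were within 2-fold.

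Of the 5 genes often used as readouts of beta-catenin, outside the members, that were detected in both comparisons, 2 were higher in each comparison, Apcdd1 and Ccnd1. Myc, Wisp1 and Znrf3 were called in neither, with log2 ratios of 0.31 ± 0.03, -0.53 ± 0.20 and 0.35 ± 0.25 in G1KO and of -0.28 ± 0.03, -0.40 ± 0.11 and 0.15 ± 0.27 in the second comparison. A further 5 readouts were detected in 1 comparison and not called, among them Nkd1 at 0.64 ± 0.03 in G1KO and Tnfrsf19 at 0.89 ± 0.23 in the RNA labelled G2KO. Among the other pathway genes not called, log2 ratios ran from -1.01 to 0.84 in G1KO and from -0.96 to 0.82 in the RNA labelled G2KO. None of the 11 nuclear genes of these lists, which leave out the member Lef1, was called in either comparison. Over all genes tested the shares called were 6.41% and 7.47%, and a list of this size is too small to be set apart from them.

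**Figure D4:**
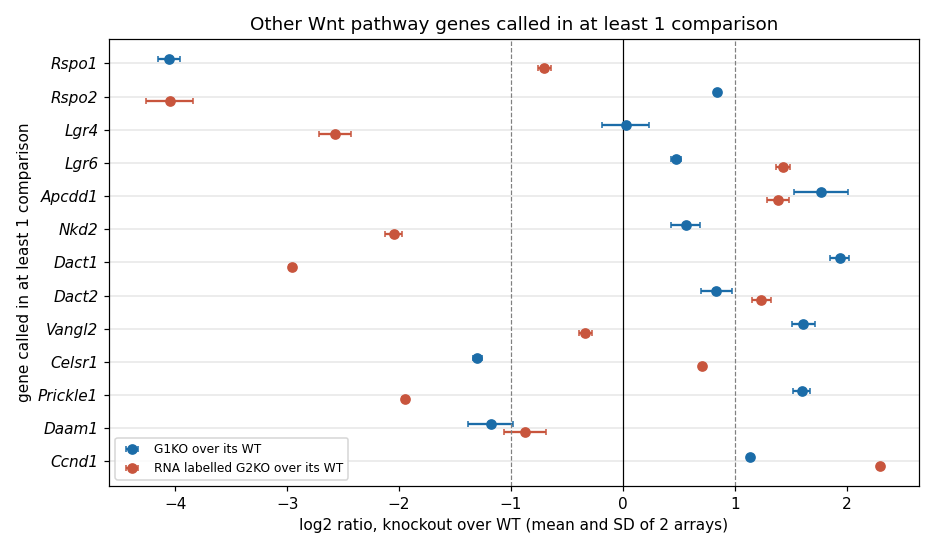
Log2 ratio of knockout over WT (x axis, mean and SD of 2 arrays) of the 13 other pathway genes called in at least 1 comparison (y axis), with dashed lines at 2-fold. Rspo1 is lowest in G1KO and Rspo2 in the RNA labelled G2KO, and Apcdd1 and Ccnd1 are above 2-fold in both.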

How the data were processed

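The authors hybridised amplified cRNA to Agilent whole-genome mouse arrays, 4 in all, and quantified spots with Feature Extraction (version 10.5.1.1 in the file headers, 9.1 in the submitters' processing notes). Their deposited scanner output gives linear intensity values, as mean spot and median local background signals, and the log10 ratio of Cy5 over Cy3; the deposited series table holds log10 ratios of the same arrays, found to run knockout over WT with a median of 0. The 4 arrays shared 1 slide and 1 scan. Intensities were corrected with normexp (offset 50) and normalised by loess within each array in limma 3.58.1 (R 4.3.3). Outlier spots were left out, 114 to 203 of 43379 gene spots per array, and spots of a probe were averaged. Levels came from both channels after Aquantile scaling. A gene was detected if well above background on both arrays of a pair in at least 1 genotype, and called if past 2-fold on both. Both arrays of a pair carried the same RNAs, so the main limit was 1 RNA per genotype and comparison. Members with at least 1 call, Axin2, Lef1, Tcf7, Lrp5 and Lrp6, and called genes of the other lists, were named. The members and lists were chosen with earlier results of these data known. The 12 alternatives changed background, normalisation, filter, probe choice, threshold or array; scripts were tested on simulated data. Promoters came from RefSeq.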

Additional observations from a re-analysis of the deposited data

Results flagged for a closer look

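Called in opposite directions in the 2 comparisons were Sfrp2 (log2 ratio 4.69 for G1KO and -4.50 for the RNA labelled G2KO), Dkk2 (1.26 and -4.82) and Wnt9a (-2.78 and 1.04). Both arrays of each pair went the same way for each of the 3 genes, which the definition of a call requires. Sfrp2 kept both calls under every alternative run, Dkk2 lost its G1KO call with median centring and at 4-fold, and Wnt9a lost its call in the RNA labelled G2KO with median centring, with no background subtraction and at 4-fold. The difference between the comparisons was not tested, since each had 1 RNA per genotype and its own WT. The 2 WT RNAs differed for the same 3 genes, by log2 differences of 4.41, 5.02 and -1.48.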

How the results depend on the processing

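No called log2 ratio changed sign under the alternatives, over 556 recomputed values, of which 158 moved by more than the SD between arrays. Some alternatives could not change the sign of a call. Those that used 1 array alone could not, since a call needs both arrays past 2-fold in the same direction. The filter settings left the ratios as they were. The scanner software's ratio and the deposited series values were nearly identical, so they count as 1 check. The main counts of members called were 9 in G1KO, 11 in the RNA labelled G2KO and 5 in both. Shares over all genes tested are given for the main setting only, so counts at other settings cannot be set against them. Members called in both numbered 3 with no background subtraction, 8 with a normexp offset of 16, 2 with median centring and 8 at a 1.5-fold threshold. With median centring 5 members were called in the RNA labelled G2KO and 3 other pathway genes in G1KO. Other pathway genes called numbered 14 for G1KO and 15 for the second comparison when the ratio computed by the scanner software was used, and likewise for the deposited series values, against 8 and 9. The same ratios called 12 members in G1KO, with Dkk3, Wnt4 and Wnt7b added, and 16 in the other comparison, with Axin2, Frzb, Fzd5, Fzd10 and Tcf7 added. At 4-fold the counts fell to 4, 4 and 1 for members and to 1 and 4 for other pathway genes, and at 1.5-fold 18 other pathway genes were called in the RNA labelled G2KO. With no background subtraction the split in the RNA labelled G2KO was 2 higher and 7 lower. With the mean of all detected probes Fzd3, Sfrp1 and Wnt5b lost their call in G1KO and Fzd2 and Fzd3 in the RNA labelled G2KO. The causes were not tested. Of the 28 members, 10 differed between the WT RNAs, and 5 at a 4-fold threshold, chosen after seeing the data. No paired analysis was possible because each comparison had 1 RNA per genotype. Axin2 had levels of 6.31 to 6.99, close to the 5.96 to 6.15 of the undetected Wnt3a, which limits its ratios. Wnt4 in the G1KO-pair WT (6.43) and Frzb in the RNA labelled G2KO (6.35) lay in the same range, and Tcf7 ran from 6.36 to 7.28. So did Sfrp4 in the RNA labelled G2KO and its WT (6.33 and 6.50) and Wnt11 in the same RNAs (6.33 and 6.62). Rspo2 in the RNA labelled G2KO had 6.58. Fzd10 ran from 6.41 to 6.70 and Wnt6 from 6.68 to 6.78. The ratios of these genes are limited likewise.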
